A study of Mus musculus with 80 samples.

Results

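The sites described here are the genomic intervals at which adding pioglitazone (Pio) to a high-fat diet (HFD) went with the gain or the loss of called peaks in RXR chromatin immunoprecipitation sequencing (ChIP-Seq) of wild-type (WT) mouse liver. A peak is an interval with more reads in the immunoprecipitated DNA than in the input DNA of the same liver. Overlapping intervals of 10 ChIP libraries, 5 from HFD livers and 5 from HFD-Pio livers, were merged into 54715 sites. A site was taken as gained with a peak in at least 3 of 5 HFD-Pio livers and in 0 of 5 HFD livers, and as lost in the opposite case. There were 2343 gained and 8 lost sites, 2351 in all. Gained sites made up 4.28% and lost sites 0.0146% of the sites, and since those peak calls are also the rule, nothing is read from these shares.

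The mice were male C57BL6/J, 5 months old and 12 weeks on the diet, with 1 library of RXR ChIP and 1 of input per liver and 5 livers from separate animals per group. HFD mice received the high-fat diet alone, and HFD-Pio mice the same diet with Pio mixed in. The series has 80 samples: 40 ChIP and 40 input libraries of 8 groups, WT or liver-specific PPARγ knockout (KO), on control diet, Pio, HFD or HFD-Pio. In KO mice, a Cre transgene under the albumin promoter, which is active in hepatocytes, removes a loxP-flanked Pparg, so the other liver cells keep the gene. The WT mice were plain C57BL6/J and carried neither the transgene nor the loxP allele. The antibody is described as one against RXRα, RXRβ and RXRγ. The labels of the KO HFD, KO Pio and KO HFD-Pio ChIP libraries name RXR in their titles only.

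Pio is a thiazolidinedione, a class of insulin-sensitising drugs that bind and activate the nuclear receptor PPARγ. PPARγ binds DNA as a heterodimer with a retinoid X receptor (RXR), classically at direct repeats of the half-site AGGTCA with a spacer of 1 base, AGGTCANAGGTCA, called DR1. RXR also pairs with PPARα, LXR, FXR, the retinoic acid, thyroid hormone and vitamin D receptors, many of which prefer other spacers. In hepatocytes PPARγ is normally low, rises with fat overload, and drives genes of lipid uptake and lipid droplets. Binding of such receptors is typically found in introns, between genes and near start sites rather than in exons.

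The libraries differed in ways that touch each result below. Tags kept after duplicates were removed, in units of 1000000, numbered 2.15 to 4.26 in the HFD and 2.04 to 4.26 in the HFD-Pio libraries. MACS2, the peak caller, estimated a fragment length of 227 to 249 bp in the 5 HFD libraries, but of 47, 169, 184, 46 and 47 bp in HFD-Pio livers 1 to 5. Called peaks numbered 1543, 1108, 1902, 579 and 1188 in HFD livers 1 to 5, and 17518, 2113, 4818, 11132 and 23929 in HFD-Pio livers 1 to 5. The 3 HFD-Pio libraries with a fragment estimate of 46 or 47 bp had the most peaks of all 10. Since the estimate separates the groups, its part in any difference between HFD and HFD-Pio cannot be told apart from that of the drug. In a whole-liver sample, more cells with a signal at a site and more signal per cell cannot be told apart either.

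Of the 237 gained sites outside every annotated exon, 8 had a DR1 with at most 2 mismatches within 100 bp of the summit. For 2 of them, near Cggbp1 and Chchd6, the element lay just outside the called interval. These sequences are shown because they are the closest matches to the PPARγ-RXR element among the gained sites that lie in non-exonic DNA. Each is read 5′ to 3′ on the stated strand from the RefSeq FASTA of GRCm38 (the mm10 build), with the 13 bases of the element in capitals and its coordinates in parentheses.
Near Slc25a4 (chr8:46230295-46230307, minus strand): tgaatacaAGGTCAAAAATCAgcaacaag
Near Kap (chr6:133761258-133761270, plus strand): tgaatacaAGGTCAAAAATCAgcaacaag
Near Rsph4a (chr10:33893901-33893913, plus strand): tgaatacaAGGTCAAAAATCAgcaacaag
Near Cggbp1 (chr16:64917792-64917804, plus strand): tgaatacaAGGTCAAAACTCAgcaacaag
In an intron of Jarid2 (chr13:44869540-44869552, plus strand): aactaaggAGGTGAAAGATCAgtatgata
Near Alkbh8 (chr9:3258940-3258952, minus strand): cggtggccAGGTTAAAGTTCAtgacactg
Near Prr23a3 (chr9:98871335-98871347, plus strand): attaccagTTGTCATAGGTCAcatcacat
Near Chchd6 (chr6:89599685-89599697, minus strand): tggagttgAGGTCAAACCTCAcatggaac
The first 4 lines come from 4 chromosomes and are nearly 1 sequence. All 4 sites matched the messenger RNA of Actg1, which encodes cytoplasmic γ-actin, over at least 50 bp at an identity of 97.0% to 99%. The stretch shared by 3 of them is found without a mismatch in an exon of Actg1 itself, at chr11:120346195-120346223, within a further gained site (chr11:120346186-120346477) called in 5 of 5 HFD-Pio livers.
Actg1 exon (chr11:120346195-120346223, plus strand, the gene being on the minus strand): tgaatacaAGGTCAAAAATCAgcaacaag
Of the other 4 sites, the one near Prr23a3 matched the messenger RNA of Capza1 at 100% identity, and 3 (near or in Jarid2, Alkbh8 and Chchd6) had no match to a protein-coding transcript.

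The gained sites lay in exons and in pseudogenes. The strongest summit was in an exon of a protein-coding gene at 1069 gained sites (45.6%), of which 911 were coding, 152 in 3′ UTRs and 6 in 5′ UTRs. Another 995 (42.5%) lay in annotated pseudogenes and 42 in other exons. Introns held 82 (3.50%) and intergenic DNA 155 (6.62%). The genome gives these features other shares, since protein-coding exons cover 2.76% and pseudogenes 0.371% of the chromosomes analysed. Among the 5950 sites called in any HFD liver, 1.01% had the summit in a protein-coding exon and 0.151% in a pseudogene. All 8 lost sites lay outside exons, 6 in intergenic DNA and 2 in introns.

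**Figure D1:**
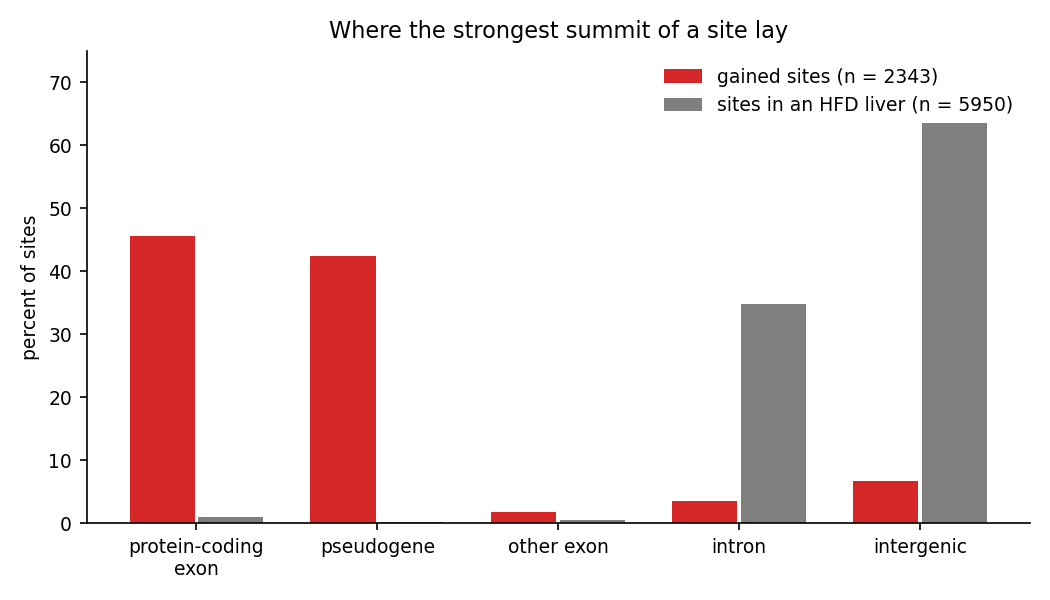
Bars give the percent of sites (y axis, from 0) whose strongest summit lay in each annotation class, for the 2343 gained sites and for the 5950 sites with a peak in at least 1 HFD liver. Exons of protein-coding genes and pseudogenes held 45.6% and 42.5% of the gained sites, against 1.01% and 0.151% of sites in an HFD liver, which were mostly intergenic or intronic.

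The whole peak lists of the same 10 libraries were also compared by group, each liver counting once. They contain the gained sites, so these tests compare the libraries of HFD-Pio and HFD livers and are no separate evidence on the gained sites. The percent of a library's peaks with the summit in a protein-coding exon was 30.2, 12.5, 7.58, 35.1 and 8.10 in HFD-Pio livers 1 to 5, and 1.17, 1.17, 1.47, 1.90 and 1.68 in HFD livers 1 to 5. The lowest HFD-Pio liver was above the highest HFD liver. The means were 18.7% ± 13 (SD, n = 5) and 1.48% ± 0.320 (SD, n = 5), an exact two-sided permutation test over the 252 assignments of the 10 livers gave p = 0.00794, the smallest it can give, and the value adjusted over 10 features was 0.0159. Pseudogenes outside protein-coding exons held 5.16% to 22.9% of the peaks in HFD-Pio livers and 0.0842% to 0.210% in HFD livers, again without overlap (exact permutation, adjusted p = 0.0159). Intergenic peaks outside exons made up 25.8% to 55.0% in HFD-Pio and 61.6% to 65.5% in HFD livers, also without overlap (exact permutation, adjusted p = 0.0159). Peaks in introns outside exons made up 24.6% ± 7.69 (SD, n = 5) in HFD-Pio and 34.8% ± 1.32 (SD, n = 5) in HFD livers (exact permutation, adjusted p = 0.0227), with ranges that overlapped. That difference did not pass without HFD liver 2, 3, 4 or 5 (exact permutation, adjusted p = 0.0567 each). In the 2 HFD-Pio livers with a fragment estimate above 100 bp, protein-coding exons held 12.5% and 7.58% and pseudogenes 13.9% and 6.77% of the peaks, also above all 5 HFD livers. The exact test of 2 against 5 livers cannot give a p below 0.0476, which both shares reached, and 0.0952 after adjustment.

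Peak number and shape differed as well. The log2 number of peaks was 13.1 ± 1.43 in HFD-Pio and 10.2 ± 0.649 in HFD livers (SD, n = 5 each, exact permutation, adjusted p = 0.0159), without overlap. The median peak width was 47, 169, 184, 47 and 47 bp in HFD-Pio livers 1 to 5, within 1 bp of the fragment estimate in each, so the width does not stand apart from that estimate. The median fold enrichment over input was slightly lower in HFD-Pio livers, 3.69 ± 0.166 against 4.08 ± 0.250 (SD, n = 5 each, exact permutation, adjusted p = 0.0227). Without HFD liver 5 the difference was -0.29 and did not pass (exact permutation, adjusted p = 0.0529). With peaks of a fold enrichment of at least 5, or with equally long lists, it was positive instead, at 1.23 and 6.06, and passed (exact permutation, adjusted p = 0.0132 and 0.0265). Peaks within 1 kb of a start site of a protein-coding gene, 5.13% ± 1.91 against 2.80% ± 1.40 (SD, n = 5 each), did not pass the test (exact permutation, adjusted p = 0.0794), and passed it with stricter peaks. Neither the median GC content around the summit (exact permutation, adjusted p = 0.0882) nor the share of non-exonic peaks with a DR1 (exact permutation, adjusted p = 0.476) passed. The GC difference, -3.0 percentage points here, was 2.4 and 4.2 with those stricter and equally long lists, and both passed (exact permutation, adjusted p = 0.0298 each).

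The gained sites were not called evenly over the 5 HFD-Pio livers. HFD-Pio livers 1, 4 and 5, those with the short fragment estimate, had a peak at 2340, 2340 and 2162 of the 2343 gained sites. Livers 2 and 3 had a peak at 599 and 722. All 3 short-fragment livers had a peak at 2157 gained sites (92.1%), and at 1343 (57.3%) they were the only ones. At least 1 of livers 2 and 3 had a peak at 1000 gained sites (42.7%), and both had one at 321 (13.7%). By number of livers, 1516 gained sites were called in 3, 520 in 4 and 307 in 5. Sites called in all 5 livers had the same make-up as the rest, with 42.7% in protein-coding exons and 44.6% in pseudogenes.

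As a description of the threshold, the 1516 gained sites just inside it, called in 3 livers, had a median fold enrichment of 6.29 and a median width of 105 bp. The 3214 sites just outside it, called in 2 HFD-Pio and 0 HFD livers, had 4.72 and 73 bp, and 51.0% of them were in protein-coding exons. The number of gained sites depended on the livers: without HFD-Pio liver 1, 4 or 5 it was 826, 828 or 996, and sites called in both livers 2 and 3 and in 0 of 5 HFD livers numbered 334.

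The 1069 exonic sites were placed by their summit, and their extent was compared with the exon. The median site was 162 bp wide in an exon of median 202 bp, and the median share of a site's bases that were exonic was 100%. There were 620 sites (58.0%) wholly inside 1 exon, and 492 (46.0%) had an edge within 10 bp of an exon edge. Both edges lay that close to the exon edges at 98 sites (9.17%). Sites and exons are of similar width, and no expected value was computed. Of the 1030 in genes with several exons, 3.30% lay in the first exon, 63.7% in internal exons and 33.0% in the last. Along the joined exons of the gene, from 5′ to 3′, 312 summits lay in the first of 3 equal parts, 473 in the middle and 284 in the last. At 31 sites the exon belonged to more than 1 gene, and there the gene is uncertain.

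The exonic sites fell in 659 of the 21938 protein-coding genes (3.0%), of which 254 held at least 2 and 17 at least 5. Ywhae, which encodes a 14-3-3 adaptor protein, held the most, 8 sites over 6 of its 7 exons (chr11:75732869-75765845). All 8 were called in HFD-Pio livers 1, 4 and 5 and 4 of them in livers 2 and 3, with a mean fold enrichment of 14.8, 4.62, 4.71, 10.8 and 5.81 in livers 1 to 5. Ywhaz, of the same family, held 7. Slc26a3, the chloride and bicarbonate exchanger of the colon, held 7 sites in 7 of 23 exons (chr12:31390871-31473917). Liver 2 had a peak at 0 of the 7 and liver 3 at 3, and livers 1, 4 and 5 at all 7, with a mean fold enrichment of 11.3, 15.7 and 6.90. Actg2, the γ-actin of enteric smooth muscle, held 7, called at 7, 2, 4, 7 and 6 sites in livers 1 to 5. For these genes livers 2 and 3 had fewer sites than livers 1, 4 and 5, and the mean fold enrichment was highest in liver 1 or 4.

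Atp5b, the β subunit of the mitochondrial ATP synthase (chr10:128083273-128090391), held 6 sites in 6 of 10 exons, called at 6, 5, 3, 6 and 6 in livers 1 to 5, with a mean fold enrichment of 18.9, 5.48, 5.59, 17.3 and 8.95. Ckmt1, the ubiquitous mitochondrial creatine kinase, held 6, called at 6, 0, 4, 6 and 5. Mdh1, the cytosolic malate dehydrogenase, held 5, and Aldoa, the glycolytic aldolase, 4. Other genes at the top were the actins Acta2 (6 sites), Actg1 (5) and Actb (4), the translation factor Eef1a1 (5), the ribosome-bound scaffold Rack1 (5), the ubiquitin ligase subunit Skp1a (5), the splicing factor Hnrnpa2b1 (5), the chaperone Hsp90ab1 (5), the chloride channel protein Clic1 (5), and the selenium-binding proteins Selenbp1 (5) and Selenbp2 (4), close paralogs between which short reads may be shared.

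**Figure D2:**
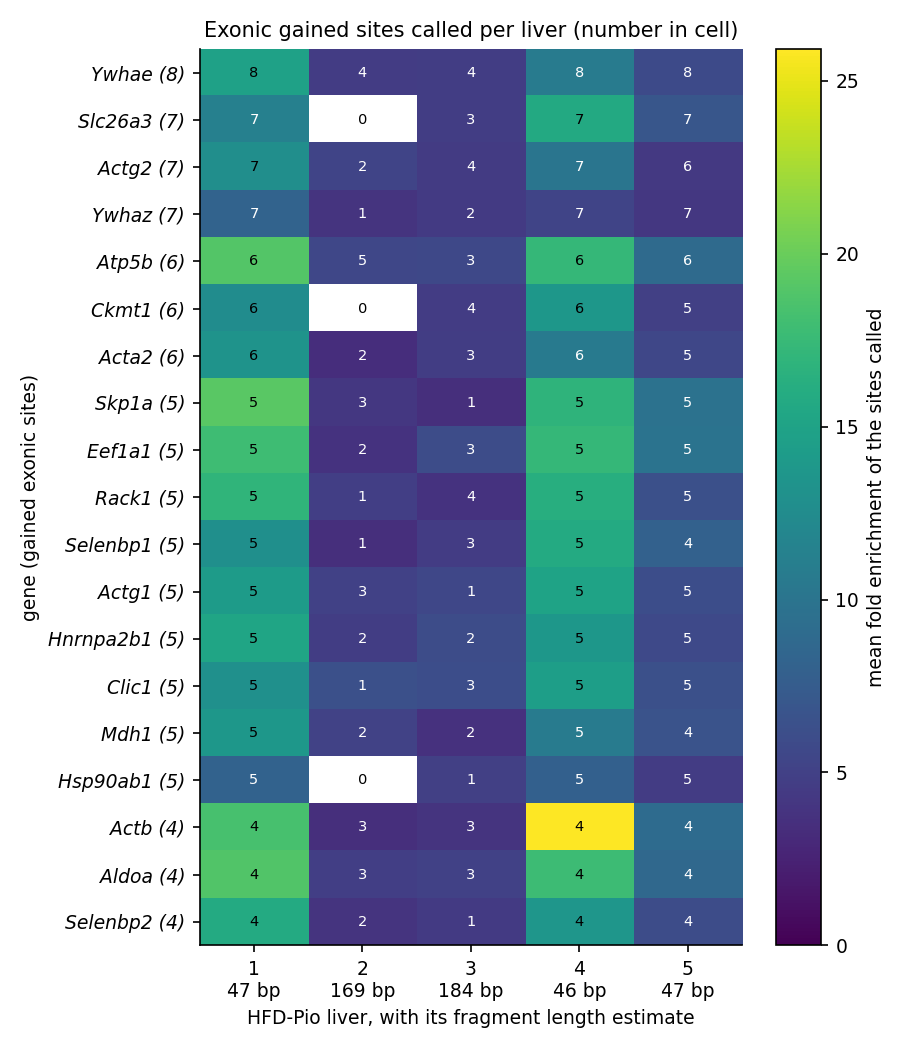
Rows are 19 of the 20 protein-coding genes with the most exonic gained sites (number in parentheses) and columns the 5 HFD-Pio livers with their fragment length estimate. Colour gives the mean fold enrichment of the sites called there, the printed number how many were called, and white none. Livers 1, 4 and 5 had nearly every site, and livers 2 and 3 fewer, with none of the sites of Slc26a3, Ckmt1 and Hsp90ab1 in liver 2.

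The sites with the highest fold enrichment among those called in all 5 livers were of the same kind. The first was pseudogene Gm49017 (chr14:98519423-98519808), with a fold enrichment of 26.9, 9.46, 4.13, 48.0 and 6.86 in HFD-Pio livers 1 to 5 and no peak in an HFD liver. The 200 bp around its summit matched the messenger RNA of Eef1a1 at 94.5% identity. Rps19-ps6 (chr12:110897996-110898576) followed with 32.3, 9.66, 5.23, 29.1 and 11.8, and matched Rps19, a protein of the small ribosomal subunit, at 99.5%. The third pseudogene was Gm13456 (chr2:40555836-40556483), which matched Eef1a1 at 99%. Next overall came the 3′ UTR of Calm2, a calmodulin gene (chr17:87433432-87434183, mean fold enrichment 16.6 ± 11.5, SD, n = 5), a coding exon of Myl6, a non-muscle myosin light chain (chr10:128492184-128492863, 16.5 ± 10.8), and a coding exon of Aldoa (chr7:126797204-126797855, 16.3 ± 9.71). In each, livers 1 and 4 were highest and livers 2 and 3 among the low ones.

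Most of the pseudogene sites matched protein-coding messenger RNAs. Of the 995, 841 (84.5%) matched a protein-coding transcript over at least 50 bp at 90% identity or more, with a median identity of 97.5%. A retrocopy, a messenger RNA copied back into the genome without its introns, gives such a match. The share over annotated pseudogenes in general was not computed, so the match is not read as a trait of the gained sites. The matched gene itself held an exonic gained site for 623 of the 841 (74.1%). Eef1a1 was the most frequent match, with 42 pseudogene and non-exonic sites, followed by Actg1 with 24, and by the large-subunit ribosomal proteins Rpl15 and Rpl3 with 22 each. Reads of 50 bp can be shared between a gene and such a copy, so which of them gave the reads is uncertain at these sites.

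Outside every annotated exon, 138 of the 237 gained sites (58.2%) also matched a protein-coding transcript, with a median identity of 97.0%. For 115 of the 138 (83.3%) the matched gene held an exonic gained site. The share was 0.985% of 25165 genome windows outside exons, placed every 100 kb, and 0.325% of the 5849 non-exonic sites called in an HFD liver. The 10 non-exonic gained sites with the highest rank were called in 5 of 5 HFD-Pio livers. The first lay 2.17 kb upstream of Tmprss5 (chr9:49078936-49079253), with a fold enrichment of 21.1, 5.71, 2.80, 35.8 and 8.18 in livers 1 to 5, and matched the ribosomal protein gene Rps14 at 93.5%. The next lay near 1700024P04Rik (chr13:98973771-98974095), matching H3f3b, a histone H3.3 gene, at 94.6%, near Nek6 (chr2:38490175-38490383), matching the thymosin gene Tmsb10 at 95.3%, and in an intron of Wrap53 (chr11:69573732-69573954), matching the ribosomal protein gene Rps27 at 100%. Sites near Mill1 (chr7:18231130-18231462) and Txnl1 matched Eef1a1, and the one near Apln (chrX:48010260-48010992) matched Calm2. The other 3 had no match. They lay 130 kb upstream of Ccnd2 (chr6:127281607-127282048), 184 kb downstream of the start of Samd9l (chr6:3200757-3201663) and in an intron of Arhgap21 (chr2:20899854-20900256). Their mean fold enrichment was 13 ± 9.13, 12.0 ± 11.4 and 11.9 ± 11.7 (SD, n = 5).

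The DR1 was about as frequent in gained sites as in genome windows. With both strands searched in the 200 bp around the summit and at most 2 mismatches, it was found around the summit of 61 gained sites (2.60%), against 2.37% of 26458 genome windows of the same length and 1.92% of all 54715 sites. The shares were 2.53% in protein-coding exons, 2.51% in pseudogenes and 3.38% outside exons, where 4 of the 8 were the copies of Actg1 shown above. With at most 1 mismatch, 2 gained sites had a DR1 (0.0854%, against 0.302% of genome windows). The motifs searched share the half-site and can overlap, among them AGGTCAAGGTCA without a spacer, found with at most 2 mismatches in 4.78% of gained sites and 2.45% of genome windows. In the pseudogene sites that share was 6.43%, and outside exons it was 2.95%. The inverted repeat AGGTCANTGACCT, the classical FXR-RXR element, was found in 1.11% of gained sites and 0.922% of genome windows. The median GC content was 48.5% around gained summits and 41.5% in the genome windows, and the shares were not matched for it. None of the 8 lost sites had a DR1 in the 200 bp around the summit.

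For genes of the receptor system the counts were low, as is the 5.47% of all protein-coding genes with a gained site, and nothing is read from zeros in lists of this size. None of the 7 genes that the study took as examples of PPARγ-driven liver expression did, in the gene or within 5 kb upstream. Cav1 had 3 sites, Cd36 4, and Cfd, Cidec and Mogat1 1 each among the 54715, and none of these had a peak in more than 2 HFD-Pio livers. Fabp4 and Plin4 had none. None of the 24 genes for RXRs, their partner receptors and cofactors held a gained site. Pparg had 10 sites, none in an HFD liver and none in more than 2 HFD-Pio livers, and Rxra, Rxrb and Rxrg had none. None of 19 LXR and FXR target genes held one. Of 30 PPAR target and lipid droplet genes, 3 did (10%).
Among them were Fabp1, the fatty acid-binding protein of liver and intestine, and Pnpla2, a triglyceride lipase. The coding-exon site of Fabp1 (chr6:71199786-71200092) had a fold enrichment of 4.33, 5.98, 5.55 and 11.2 in HFD-Pio livers 1 to 4 and no peak in liver 5. The site assigned to Pnpla2 (chr7:141451233-141451339), called in 3 livers, lay in an exon of a neighbouring gene.

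Lists of energy metabolism differed in their shares. Of 73 genes of oxidative phosphorylation, 31 (42.5%) had one, 27 of them in an exon. Ndufa6, an accessory subunit of complex I, had its strongest site at chr15:82350859-82351160, with a fold enrichment of 30.7, 3.88, 4.22, 29.5 and 8.82 in HFD-Pio livers 1 to 5. Livers 1 and 4 were again the highest. Of 25 genes of the citric acid cycle and mitochondrial carriers, 15 (60.0%) had one, among them the ADP/ATP carrier Slc25a5 (chrX:36796787-36797395, mean 13.4 ± 9.83, SD, n = 5), the succinyl-CoA ligase subunit Suclg1 (chr6:73275109-73275440, 8.96 ± 5.90) and the outer membrane channel Vdac2. Of 25 genes of fatty acid oxidation, 5 (20%) had one, among them the electron transfer flavoprotein subunit Etfb, the enoyl-CoA hydratase Echs1, the acyl-CoA synthetase Acsl5 and the mitochondrial thiolase Acat1. Of 19 glycolytic genes, 4 (21.1%) had one, and of 27 genes of cholesterol and fatty acid synthesis 1 (3.70%), Fdft1, which encodes squalene synthase.

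Lists of the cytoskeleton, protein folding and gene expression had gained sites at 14 of 18 actins and tubulins (77.8%), 17 of 25 chaperones (68.0%), 49 of 78 cytosolic ribosomal protein genes (62.8%), 16 of 27 splicing factor and hnRNP genes (59.3%) and 14 of 25 translation factor genes (56.0%). Examples are Hspa5, the chaperone of the endoplasmic reticulum, whose 3′ UTR site (chr2:34775558-34776401) had a fold enrichment of 14, 8.53, 10.6, 14.1 and 5.49 in HFD-Pio livers 1 to 5, and Rpl30 (chr15:34442549-34442871), with 15.8, 3.98, 6.10, 22.4 and 14.4. The spread over livers was smaller for Hspa5 than for most sites named here. These lists are described by their counts beside the 5.47% of all protein-coding genes, and no test of a list was made.

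**Figure D3:**
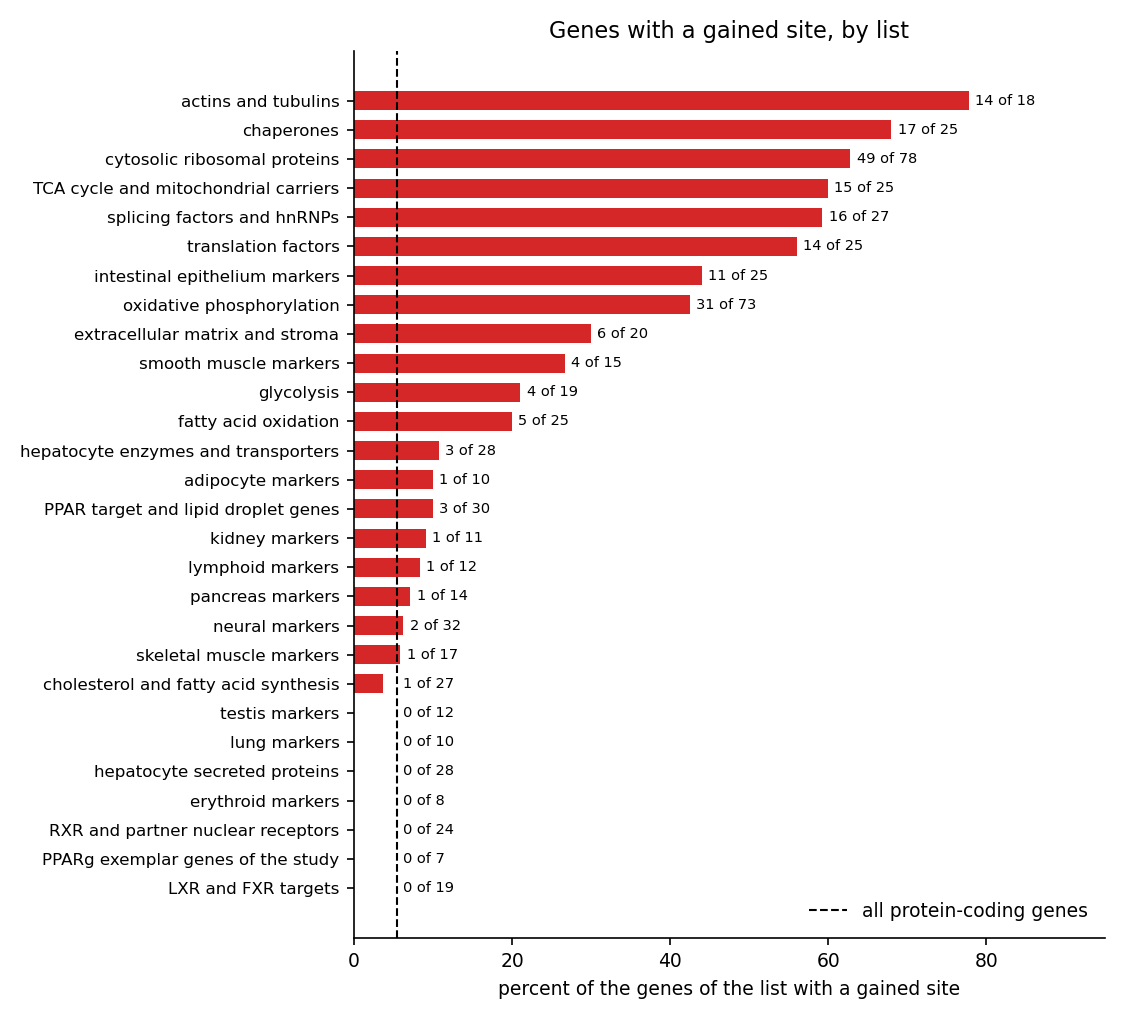
Bars give, for each of 28 gene lists, the percent of its annotated genes with a gained site in the gene or within 5 kb upstream (x axis, from 0), with the number of genes beside each bar. The dashed line marks the 5.47% of all 21938 protein-coding genes. Actins and tubulins, chaperones, ribosomal, oxidative phosphorylation, citric acid cycle, splicing and translation genes and intestinal markers reached 42.5% to 77.8%, and 7 lists were at 0.

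Lists of cell type markers differed in their counts. None of 28 genes for proteins that hepatocytes secrete, such as albumin and apolipoproteins, held a gained site, and 0 of the 28 had an exonic peak in any of the 10 HFD and HFD-Pio libraries. Of 28 hepatocyte enzymes and transporters, 3 held one, Adh1, Pck1 and Ass1, each called in 3 livers. Exonic peaks were present at 6, 0, 0, 6 and 3 of these 28 in HFD-Pio livers 1 to 5 and at 0 in each HFD liver. Of 25 intestinal epithelium markers, 11 did (44.0%). Agr2, a disulphide isomerase of goblet cells (chr12:35997294-35997614), had a fold enrichment of 15.2, 5.32, 7.05, 20.9 and 8.74 in HFD-Pio livers 1 to 5. Car1, the carbonic anhydrase of colon and erythrocytes (chr3:14777847-14777936), had 21, 26.7 and 8.82 in livers 1, 4 and 5 and no peak in livers 2 and 3. The others were Slc26a3, the goblet cell lectin Zg16, Lgals4, Krt19, Krt20, Clca1, Pigr, Cdh17 and Vil1.
Exonic peaks were present at 14, 2, 4, 13 and 11 of the 25 intestinal genes in HFD-Pio livers 1 to 5 and at 0 in each HFD liver. For 15 smooth muscle markers the numbers were 8, 3, 4, 7 and 5, and 0 in each HFD liver. The smooth muscle genes with a gained site were Acta2, Actg2, Myl9 and Tagln. Over all protein-coding genes, 0.962% to 11.7% had an exonic peak in an HFD-Pio liver and 0.0456% to 0.123% in an HFD liver. Of 20 genes of extracellular matrix and stroma, 6 held a gained site, and of 32 neural markers 2, Tubb3 and Snap25. Skeletal muscle (1 of 17), pancreas (1 of 14), kidney (1 of 11), lymphoid (1 of 12) and adipocyte markers (1 of 10) held 1 each, and lung (0 of 10), testis (0 of 12) and erythroid markers (0 of 8) none. The sites counted for Snap25 and for the kidney marker Nphs1 lay in pseudogenes and not in an exon of these genes. The part of other tissues, of RNA and of the fragment length in the gained sites was not tested.

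The gained sites were also examined in livers that the rule did not use. In WT mice on the control diet, 2087, 2096, 2301, 582 and 2070 of the 2343 sites had a peak in Pio livers 1 to 5, and 16, 1, 7, 1 and 29 in livers 1 to 5 without Pio. The groups did not overlap. The means were 1827 ± 702 and 10.8 ± 11.9 (SD, n = 5 each), and the exact two-sided permutation test gave p = 0.00794, the smallest it can give, with an adjusted value of 0.0238 over 6 tests. Outside exons, 177 ± 69.8 and 3.60 ± 3.58 of the 237 sites were called (SD, n = 5 each, exact permutation, adjusted p = 0.0238). At least 3 of 5 WT Pio livers had a peak at 2150 gained sites (91.8%), and at least 3 of 5 control livers at 4. Over all 54715 sites, 43208 of them called in 1 HFD-Pio liver alone, the upper quartile was 0 WT Pio and 0 control livers. The 3214 sites called in 2 HFD-Pio and 0 HFD livers had a median of 3 and an upper quartile of 4 WT Pio livers. For the gained sites both values were 4. The share of all sites with a peak in at least 3 WT Pio livers was not computed. Called peaks in all numbered 1905 to 33705 in WT Pio and 1036 to 12919 in control livers. Fragment estimates were 191, 48, 45, 263 and 48 bp in WT Pio livers 1 to 5 and 183 to 292 bp in control livers. WT Pio liver 1, with an estimate of 191 bp, had a peak at a number of gained sites within the range of the short-fragment livers 2, 3 and 5, and liver 4, at 263 bp, at the fewest.

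In KO livers the gained sites were called with and without Pio. KO HFD livers 1 to 5 had a peak at 910, 837, 1015, 857 and 571 of the 2343 sites, and KO HFD-Pio livers 1 to 5 at 812, 915, 897, 906 and 872. The ranges overlapped, and the means of 838.0 ± 164 and 880.4 ± 41.5 (SD, n = 5 each) did not differ beyond the spread (exact permutation, p = 0.698, adjusted p = 1.0). Without KO HFD liver 5 the difference changed sign, from 42.4 to -24.35 sites. Outside exons the means were 58.6 ± 17.6 and 58.8 ± 5.17 (exact permutation, adjusted p = 1.0). Over all 54715 sites, the upper quartile was 0 KO HFD and 0 KO HFD-Pio livers with a peak. For the 3214 sites called in 2 HFD-Pio and 0 HFD livers it was 2 in each KO group, and for the gained sites 4. The difference between WT and KO was not tested. The KO peaks were called at another threshold (q of 0.05 rather than p of 0.001) on fewer tags (0.651 to 0.924 kept in KO HFD and 0.628 to 0.879 in KO HFD-Pio livers, in units of 1000000), so values of the genotypes are set side by side without a comparison of their size.

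**Figure D4:**
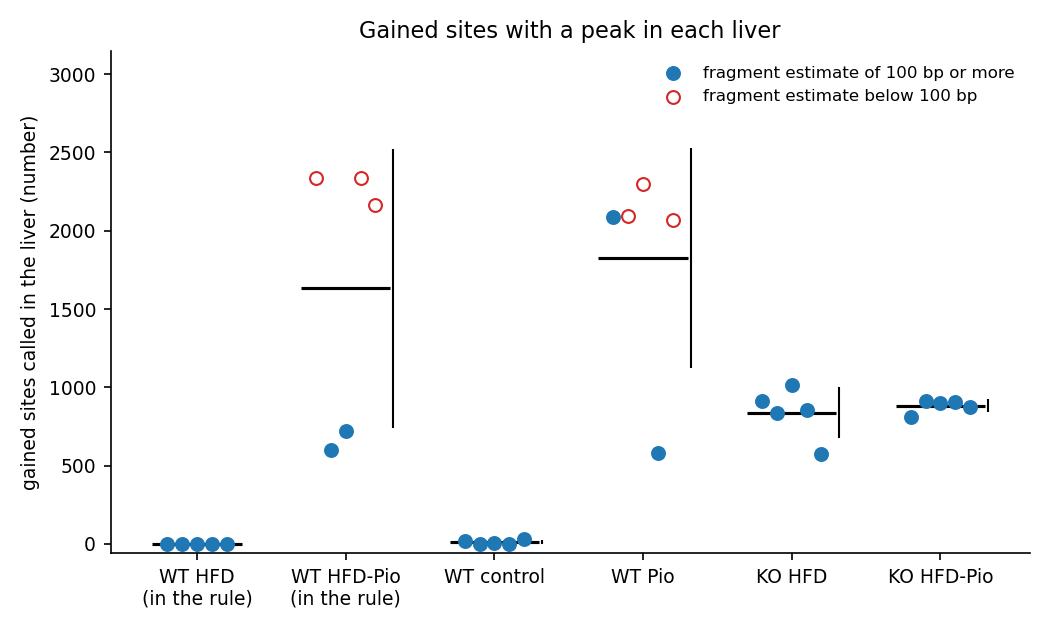
Each point is 1 liver and gives the number of the 2343 gained sites with a peak (y axis). Lines give the group mean and vertical bars 1 SD (n = 5, cut at 0), and open red points mark libraries with a fragment estimate below 100 bp. WT HFD and HFD-Pio livers were used by the rule. WT Pio livers had 582 to 2301 and control livers 1 to 29 of these sites, and KO livers 571 to 1015 with or without Pio on HFD.

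The gained sites seen in KO livers were of some genes and not of others. At least 3 of 5 KO HFD-Pio livers had a peak at 506 of the 1069 exonic gained sites (47.3%). At least 3 of 5 KO HFD livers had one at 476 (44.5%). The same shares over all exonic sites, gained or not, were not computed, in total or by list. These counts therefore do not tell the gained sites from other exonic sites. Counted by gene, 12.6% to 29.6% of all protein-coding genes had an exonic peak in a KO HFD liver. In a KO HFD-Pio liver the range was 23.6% to 27.4%. Of the 20 exonic sites in intestinal marker genes, 0 were called in at least 3 livers of either KO group, and 19 in at least 3 WT Pio livers. Of 7 sites in genes of fatty acid oxidation, 1 and 0 were (KO HFD and KO HFD-Pio), and of 4 in PPAR target genes 0 and 0. By contrast, 31 and 30 of 35 sites in splicing factor genes, 27 and 28 of 34 in chaperone genes and 26 and 26 of 48 in oxidative phosphorylation genes were. All 8 Ywhae, 6 Atp5b and 5 Hsp90ab1 sites were called in at least 3 livers of both KO groups, while 0 of the 7 Slc26a3, 7 Actg2, 6 Ckmt1, 5 Selenbp1 and 4 Selenbp2 sites were in either. These are counts over different livers and thresholds, without a test.

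**Figure D5:**
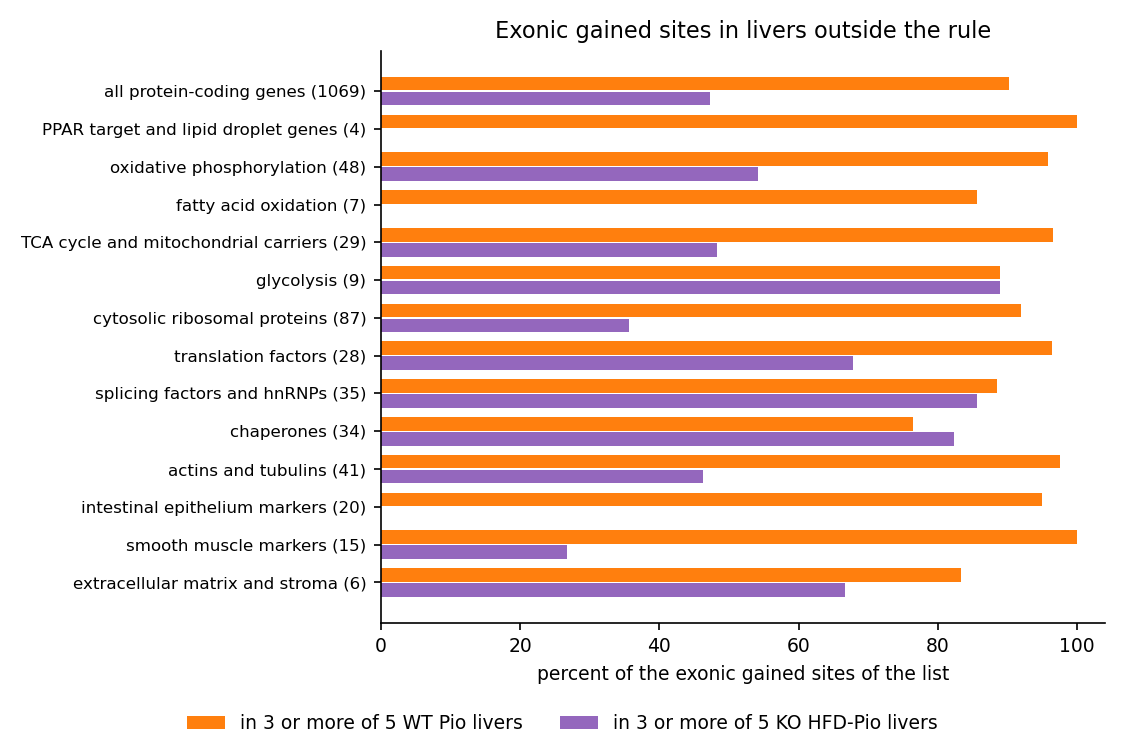
For each gene list with at least 4 exonic gained sites (number in parentheses), bars give the percent of these sites with a peak in at least 3 of 5 WT Pio livers and in at least 3 of 5 KO HFD-Pio livers (x axis, from 0). WT Pio livers had 76.5% or more of the sites of each list, and KO HFD-Pio livers from 0 of the intestinal, fatty acid oxidation and PPAR target sites to 88.9% of the glycolytic sites.

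The 8 lost sites lay between genes or in introns. The site 85.0 kb downstream of the start of Sfi1, a centrosome gene (chr11:3100921-3102518), was the only one called in all 5 HFD livers, with a fold enrichment of 3.10, 3.49, 4.21, 1.75 and 2.79. It was also called in 3 of 5 control and 2 of 5 WT Pio livers. The site upstream of Castor2 (chr5:133685287-133685771) was called in 4, with 3.85, 4.87, 4.14 and 4.49 in HFD livers 1, 2, 3 and 5. The other 6, called in 3 HFD livers each, had a mean fold enrichment of 1.63 to 6.20. They lay near Bcat1 (chr6:144885141-144885661), Cacna2d3 (chr14:28801067-28801595), Gm17728 (chr17:9330920-9331420) and Nbea (chr3:56575351-56575903), and in introns of Gabbr2 (chr4:46777725-46778268) and Gm21704 (chrY:3368313-3368808). None matched a protein-coding transcript, and none was called in a KO liver. Their number was 4, 5, 4 and 4 without HFD liver 1, 2, 3 and 5, and 14 without HFD-Pio liver 3. In livers outside the rule they did not separate Pio from control, with 1.40 ± 1.14 of the 8 called in WT Pio and 2.40 ± 2.51 in control livers (SD, n = 5 each, exact permutation, adjusted p = 1.0).

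Few sites were called in every liver of both groups. Others were shared by fewer livers, the most frequent case being 195 sites called in 1 liver of each group. Peaks in all 10 livers were found at 6 sites, 5 of them with a mean fold enrichment of 1.90 to 2.42 in either group, on chromosomes 2, 9 and 14 beside predicted genes such as Gm10800 and Gm11168. The sixth, on chromosome Y (88092437 to 88093209), had 5.20 ± 1.10 in HFD-Pio and 5.68 ± 1.70 in HFD livers (SD, n = 5 each). The widest spanned 29293 bp on chromosome 9. At each of these 6 sites the ranges of the groups overlapped.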

How the data were processed

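RXR ChIP and input DNA of each liver had been sequenced as 50 bp single reads and aligned to mm10 with Novoalign, per the study's methods and the submitters' processing notes. The authors called peaks per library with MACS2 2.1.1.20160309 against the liver's own input, keeping 1 tag per position, at p = 0.001 in WT and q = 0.05 in KO, per the file headers. The deposited tables hold, per summit, the pileup signal, the −log10 p and −log10 q, and the fold enrichment over input, a ratio. The headers of the WT tables say that no q was calculated, although that column holds values. No read counts were analysed here, so the study's differential test was not repeated.

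From the deposited intervals, the strongest summit of each on chromosomes 1 to 19, X and Y was kept. Intervals overlapping by 1 bp or more were merged, and a liver was counted at a site where it had a peak. Summits were annotated with GENCODE M21, in the order protein-coding exon, pseudogene, other exon, intron, intergenic. The 200 bp around each summit, from the RefSeq GRCm38 genome, were searched for motifs and matched to protein-coding transcripts (BLAST 2.17.0, at least 50 bp and 90% identity). Livers were compared by exact two-sided permutation tests with Benjamini-Hochberg adjustment over 10 or 6 tests (Python 3.11.15, numpy 2.4.6, pandas 2.3.3). The procedure was tested on simulated data. Named were the gained sites with the highest mean fold enrichment among those called in the most livers, likewise in pseudogenes and outside exons, all lost sites and all sites with a peak in all 10 livers, the 20 genes with the most exonic gained sites, and up to 4 leading genes of each of 28 lists. Further list members, such as Acat1, were added after their values were seen, and some genes that the rule names are not reported here. The members and the gene lists were chosen with earlier results of these data known. Replicate numbers mark different animals in each group. Same-numbered livers correlated at -0.30 to 0.24 over the 10 features. Those few, related features cannot show whether same-numbered livers were processed together, and the main tests treated all livers as unpaired.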

Additional observations from a re-analysis of the deposited data

Results flagged for a closer look

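Each of 35 sets of 5 livers was examined for a liver far from the others, and 4 values stood apart by Dixon's criterion (0.71 for 5 samples). Chance flags about 1 in 20 groups. The median GC content around the summits of HFD-Pio liver 5 was 35.0%, against 41.5% to 43.5% in the other 4 HFD-Pio livers. That library had the most peaks of the group, 23929. WT Pio liver 4 had a peak at 582 gained sites, and the other 4 WT Pio livers at 2070 to 2301. The same liver had a peak at 54 of the gained sites outside exons, and the others at 196 to 229. It had the longest fragment estimate of the group, 263 bp, and the fewest peaks, 1905. KO HFD liver 5 had a peak at 28 of the gained sites outside exons, and the other 4 KO HFD livers at 63 to 73. It had 8311 peaks, the fewest of its group. The part of depth or fragment length in these values was not tested.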

How the results depend on the processing

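With peaks at −log10 q of at least 1.3, at a fold enrichment of at least 5, and in lists of equal length, gained sites numbered 1423, 1014 and 350, and lost sites 5, 1 and 13. The HFD-Pio minus HFD difference in median fold enrichment, negative as reported, became 0.0046, 1.23 and 6.06, and that in GC content became 0.80, 2.40 and 4.2 percentage points, both passing in the stricter and the equal lists but not at that q. The difference within 1 kb of a start became 5.37, 7.78 and 7.22 points and passed the test. The DR1 difference was -0.24 points at −log10 q of at least 1.3, and the width difference -110.4 bp at a fold enrichment of at least 5, which no longer passed. Equal lists set the difference in log2 peak number to 0 by construction.

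With only the 2 HFD-Pio livers of longer fragment estimate, gained sites numbered 334 and lost sites 15, and no feature passed. The differences were 1.44 in log2 peak number, -61.9 bp in width, -0.38 in fold enrichment, 8.58 points in protein-coding exons, 10.2 in pseudogenes, -5.09 in introns and -14.5 in intergenic DNA. Calling in at least 4 of 5 livers left 827 gained and 2 lost sites and 495 protein-coding genes, summits within 100 bp gave 5 lost sites, and 237 gained sites lay outside exons. Exons alone held gained sites in 659 genes.

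With the replicate number as a block (replicate block), the smallest possible p is 0.0625, so no result could pass at unchanged differences of 2.87, -139.6, -0.39, 17.2, 12.9, -10.1 and -20.8 (the 7 features in the order above), 1816.4 gained sites and 173.0 outside exons (WT Pio minus control). The KO HFD-Pio minus KO HFD difference, not called, was -35.0 gained sites at a fold enrichment of at least 5 and -0.55 as percent of a library's peaks, and outside exons -9.2, -6.2 in equal lists and -0.034 as percent.

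Leaving out each liver in turn gave 826 to 2349 gained and 4 to 14 lost sites (14 without HFD-Pio liver 3). Differences ranged over 2.51 to 3.38 in log2 peak number, -160.9 to -126.65 bp in width, -0.45 to -0.29 in fold enrichment (not passed without HFD liver 5), 13.1 to 20 points in protein-coding exons, 10.4 to 14.9 in pseudogenes, -12.2 to -7.67 in introns (not passed without HFD liver 2, 3, 4 or 5), -24.0 to -16.7 in intergenic DNA, 1.75 to 2.88 within 1 kb of a start (passed without HFD-Pio liver 5) and 0.065 to 0.44 for the DR1 (passed without HFD liver 1). WT Pio minus control stayed at 1698 to 2128 gained sites and 159.9 to 203.65 outside exons, passing each time. KO HFD-Pio minus KO HFD ranged over -24.35 to 86.65 gained sites and -7.45 to 3.80 outside exons. Where a direction changed, the cause was not tested. A site with no call may still hold signal under the caller's threshold, so depth and the fragment estimate limit each absence.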

Other observations

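Control liver 5 of the WT mice stood apart in 1 of the 2 lists of hepatocyte genes. It had an exonic peak at 11 of the 28 genes for proteins secreted by hepatocytes, and the other 4 control livers at 0. The WT Pio, HFD and HFD-Pio livers had one at 0 of these genes. Each KO HFD and KO HFD-Pio liver had one at 2 of the 28. Of the 28 hepatocyte enzymes and transporters, no control liver had an exonic peak at more than 1. Over all protein-coding genes, 0.128% to 0.451% had one in a control liver.

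Smooth muscle markers had exonic peaks in KO livers as well, at 4 to 9 of 15 genes in KO HFD and at 7 to 12 in KO HFD-Pio livers. Over all protein-coding genes, 12.6% to 29.6% had an exonic peak in a KO HFD liver and 23.6% to 27.4% in a KO HFD-Pio liver. Neural markers had them at 24 to 27 of 32 genes in KO HFD and at 25 to 27 in KO HFD-Pio livers. Intestinal markers had exonic peaks at 0 of 25 genes in each KO HFD liver and at 0 or 1 in the KO HFD-Pio livers. In WT Pio livers 1 to 5 they had them at 10, 13, 14, 0 and 12 genes, beside 1.16% to 14.9% of all protein-coding genes.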
